A study of Mus musculus with 16 samples.

Results

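RNase footprints on the mt-Nd5 mRNA were read from both lists of footprints that the authors called around the loss of LRPPRC in mouse heart mitochondria. The members are all plus-strand footprints whose largest overlap with a gene of the same strand, at least 1 nt, is with mt-Nd5 (ENSMUSG00000064367.1), the protein-coding gene at chrM:11742-13565 of mm10, which is 1824 nt long and has no intron. They number 23 of the 302 footprints in both lists, of which 11 were called on the control track and 12 on the knockout track. Another 18 footprints lay on the minus strand over the same span, 8 control-called and 10 knockout-called, and served as the antisense contrast.

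mt-Nd5 encodes ND5, a proton-pumping core subunit in the membrane arm of complex I of the respiratory chain. It is transcribed from the heavy-strand promoter near the distal end of the polycistronic transcript, and its mRNA, unlike most mitochondrial mRNAs, is not followed directly by a tRNA on its own strand. LRPPRC is a pentatricopeptide repeat protein that, with SLIRP, binds mitochondrial mRNAs and is known to keep them stable, polyadenylated and available for translation. An RNA-bound protein or a folded stretch lowers cleavage by an RNase, so a span that is cut less than its surroundings is read as a footprint.

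The footprints came from C57BL/6N mice, all 12-week-old males, of 2 genotypes. The controls were Lrpprc loxP/loxP, and the knockouts were Lrpprc loxP/loxP,Cre+, in which Lrpprc is lost in heart and skeletal muscle only. Each genotype had 4 libraries of isolated heart mitochondria, digested with RNase A at 10 U/µl, which cuts after pyrimidines, with RNase T1 at 0.1 U/µl, which cuts single strands after G, or with RNase If at 0.01 U/µl, which prefers single strands of any sequence, or mock-digested. Slirp +/+ and Slirp -/- libraries, 4 of each, are listed in the labels and were not analysed here. The 4 libraries of a genotype make up 1 track, so no value below has an error between animals, no test was made, and a difference between genotypes and a difference between these 2 sets of preparations cannot be told apart. Read counts are not part of these lists, which leaves the depth of the libraries unknown. They hold no nuclear gene either, so neither the heart label nor the loss of Lrpprc could be checked. In bulk mitochondria, fewer cells and less mt-Nd5 RNA per cell cannot be told apart.

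The C score of a nucleotide is the log10 of the highest of the 3 RNase values over the mock value, each with 1 added. These values are the 5′ coverage of the next nucleotide downstream, where a fragment cut after the scored nucleotide begins. A C score of 0 means no more scaled 5′ coverage with RNase than in mock-digested mitochondria. Because 1 is added to each value, it also arises where no library has reads. The C score of a footprint is the mean over its nucleotides. The F score adds the accessibility of the footprint relative to its left 3 nt and relative to its right 3 nt. It is 2 where footprint and flanks are cut alike, and it is lower the better the footprint is protected. The control-called list holds spans whose F score was higher in the knockout, and the knockout-called list spans whose F score was lower there. The authors' methods also ask that a candidate's central C score be higher in the knockout than in the control. C scores thus entered the calling. Both scores are the authors' values on the track on which a footprint was called.

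The footprints of the 2 lists met at 5 sites on the mt-Nd5 mRNA, where a control-called footprint lay within 3 nt of a knockout-called one. Their sequences are shown because the edge between both footprints falls inside them. They are RefSeq's mm10 sequence of the plus strand, 5′ to 3′, with the bases of the knockout-called footprint in capitals. The lower-case bases belong to the control-called footprints, which also hold the shared bases given below.
chrM:12598-12639: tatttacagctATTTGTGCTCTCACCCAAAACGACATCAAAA
chrM:12659-12701: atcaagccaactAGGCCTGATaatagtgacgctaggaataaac
chrM:12727-12775: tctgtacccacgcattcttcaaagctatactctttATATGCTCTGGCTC
chrM:13114-13141: cattcggaagcatcttTGCAGGATTTGT
chrM:13386-13428: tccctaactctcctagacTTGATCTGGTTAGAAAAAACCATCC

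Counted from the first codon of the open reading frame, these sites lay over codons 286 to 300, 306 to 320, 329 to 345, 458 to 467 and 549 to 563 of 608, the stop codon included. The first 3 of them followed each other within nt 857 to 1034 of the transcript, close to its middle.

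At chrM:12598-12639 the footprints abutted without sharing a base. The control-called footprint at chrM:12598-12608 (11 nt) had an F score of 1.33 and a C score of 0.049. The knockout-called footprint began at the next base, at chrM:12609-12639 (31 nt), with an F score of 1.18 and a C score of 0.038. An F score of 1.33 was the highest of all 178 control-called footprints in the series, so protection relative to the flanks was weakest here among the control-called spans.

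At chrM:12659-12701 a short knockout-called footprint lay between 2 control-called ones. The control-called footprints at chrM:12659-12676 (18 nt) and chrM:12680-12701 (22 nt) had F scores of 0.979 and 1.04. The knockout-called footprint at chrM:12671-12679 (9 nt) shared 6 nt with the first, abutted the second, and had an F score of 1.04, the lowest of the 12 on mt-Nd5. It was also the only one of these 12 with a C score below 0, at -0.17, where scaled coverage with RNase was on average below that of the mock library. All 6 nt of its flanks lay inside the control-called footprints, so the bases that served as its exposed flanks in the knockout were protected bases on the control track.

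At chrM:12727-12775 the longest control-called footprint of mt-Nd5, chrM:12727-12762 (36 nt), had an F score of 0.876 and a C score of 0.0029. Its last base was the first base of the knockout-called footprint at chrM:12762-12775 (14 nt), which had an F score of 1.30.

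The best protected footprint of mt-Nd5 was the control-called one at chrM:13114-13130 (17 nt), with an F score of 0.684 and a C score of -0.12. Its flanks were 2.93 times as accessible as the footprint, taken as 2 divided by the F score. Its last base opened the knockout-called footprint at chrM:13130-13141 (12 nt), whose F score was 1.22 and whose flanks were 1.64 times as accessible. The protected span thus lay 5′ of the shared base on the control track and 3′ of it on the knockout track.

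At chrM:13386-13428 the footprints overlapped most. The control-called footprint at chrM:13386-13419 (34 nt, F score 0.820) and the knockout-called one at chrM:13404-13428 (25 nt, F score 1.43) had 16 nt in common. Nearest to the stop codon, this was also the site with the largest difference between the 2 F scores. Taken as a ratio, they lay farthest apart at chrM:13114-13141. The 2 F scores of a site belong to different spans on different tracks, so neither measure is a change of the same span between genotypes.

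**Figure D1:**
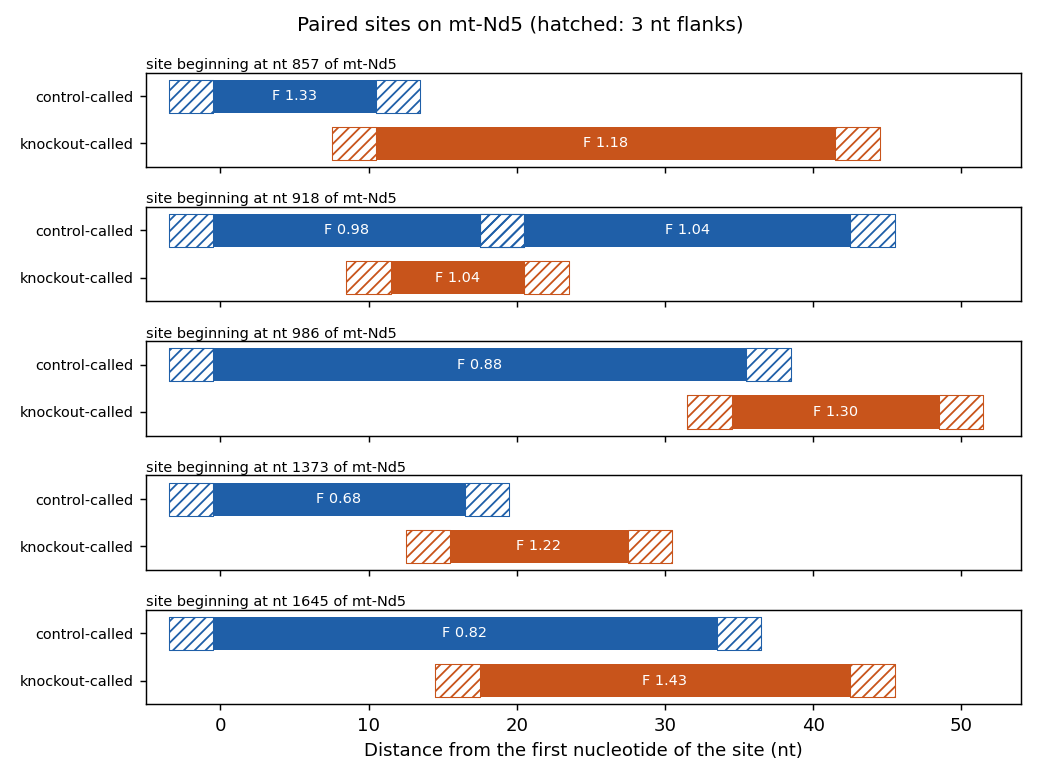
The 5 sites of the mt-Nd5 mRNA at which control-called (blue) and knockout-called (orange) footprints met, drawn in nt from the first nucleotide of each site. Filled bars are footprints with their F score, hatched boxes the 3 nt flanks that enter it. At each site a flank of one list lay inside the footprint of the other, which the pairing limit of 3 nt, the width of a flank, largely fixes. The knockout-called footprint of the site that begins at nt 918 of the transcript had both flanks inside control-called footprints.

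In all, 6 of the 11 control-called footprints (54.5%, 95% Wilson interval 28.0 to 78.7%) had a knockout-called footprint within 3 nt on the same strand, against 39.3% of the 178 control-called footprints of the series. Of the 12 knockout-called footprints 5 had a control-called neighbour (41.7%, 19.3 to 68.0%), against 50.8% of all 124. Both intervals include the share over the whole list. The 11 footprints made 6 pairs, of which 4 shared bases and 2 abutted. In 5 of the 6 pairs the control-called footprint lay 5′ of the knockout-called one (83.3%, 43.6 to 97.0%). On the other plus-strand mRNAs this was the order in 15 of 39 pairs (38.5%, 24.9 to 54.1%), over all pairs of the series in 35 of 79 (44.3%, 33.9 to 55.3%), and on the antisense strand of mt-Nd5 in 2 of 5. The intervals overlap, and the order was noticed in these data and not tested.

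The remaining 5 control-called footprints stood alone. 3 of them lay toward the 5′ end. The footprint at chrM:11989-11996 (8 nt) had an F score of 1.25 and the highest C score of the 11, 0.15. The neighbours chrM:12048-12059 (12 nt) and chrM:12062-12082 (21 nt), 2 nt apart, had F scores of 0.864 and 0.989. The other 2 were chrM:12568-12582 (15 nt, F score 0.853) and chrM:12913-12926 (14 nt, F score 0.899). The first of these had the lowest C score of all footprints on mt-Nd5. Its C score of -0.29 corresponds to a geometric mean ratio of 0.516 over its nucleotides, each taken as the highest RNase value over the mock value.

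The remaining 7 knockout-called footprints were spread from codon 142 to codon 530. Toward the 5′ end lay chrM:12166-12196 (31 nt, F score 1.05), chrM:12326-12357 (32 nt, F score 1.14) and chrM:12495-12507 (13 nt, F score 1.17). Toward the 3′ end lay chrM:13048-13056 (9 nt, F score 1.37), chrM:13161-13169 (9 nt, F score 1.43), chrM:13301-13308 (8 nt, F score 1.55) and chrM:13313-13330 (18 nt, F score 1.34). The C score of chrM:13161-13169 was 0.0, a value that a span without reads would also give. The footprint at chrM:13301-13308 had the highest F score of the 12, so its flanks were only 1.29 times as accessible as its bases. Over all 12 knockout-called footprints and 3 equal parts of the gene, the F score was below the median of the 12 in 2 of 2 in the 5′ part, 3 of 4 in the middle part and 1 of 6 in the 3′ part. Of the control-called footprints, 1 of 3, 2 of 6 and 2 of 2 lay below their own median, so the share was the same in the 5′ and middle parts. These counts are small, and no trend along the gene was tested.

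**Figure D2:**
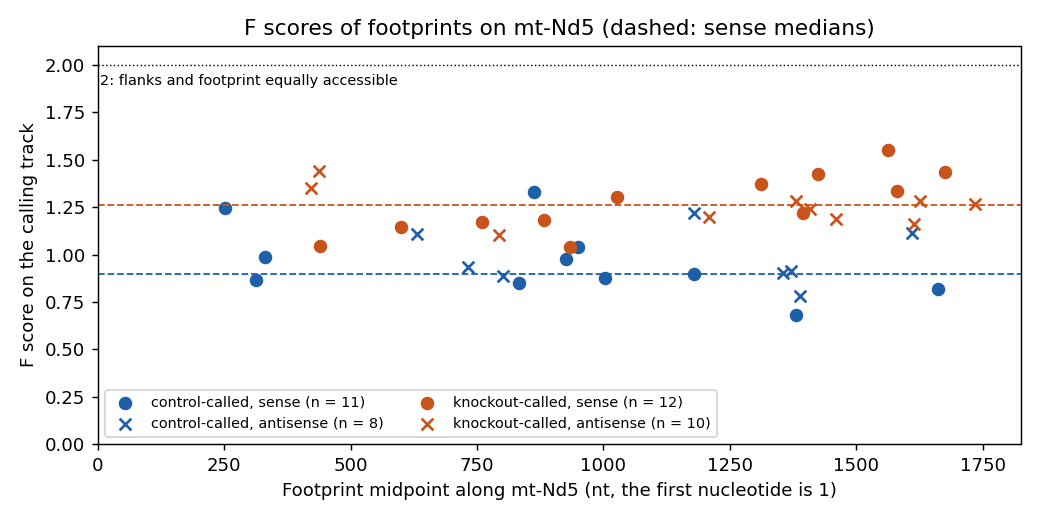
F score on the calling track of every footprint on mt-Nd5 against its midpoint along the gene (nt), for sense (circles) and antisense (crosses) footprints of the control-called (blue) and knockout-called (orange) lists. Dashed lines mark the sense medians, 0.899 and 1.26, and the dotted line at 2 equal accessibility. The highest score, 1.55, belongs to a knockout-called sense footprint in the 3′ part of the gene.

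The 11 control-called footprints had a median F score of 0.899, from 0.684 to 1.33, and the 12 knockout-called ones a median of 1.26, from 1.04 to 1.55. Over all footprints of each list the medians were 0.826 and 1.27. The lists stood in the same order over the whole series as on mt-Nd5. On mt-Nd5, 3 of 11 control-called footprints had an F score above 1, against 17.4% of the list, and 12 of 12 knockout-called ones, against 83.9%.

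The C scores were close to 0. The median was 0.0029 for the control-called and 0.026 for the knockout-called footprints, where all control-called footprints of the series had a median of -0.027 and all knockout-called ones 0.026. The sign of the control-called median on mt-Nd5 depended on the shortest footprints. With footprints of at least 10 nt only, the medians on mt-Nd5 were -0.018 and 0.041. 5 of the 11 control-called footprints (45.5%, 21.3 to 72.0%) had a C score below 0, against 61.8% of the whole list and 70 of 91 on the other plus-strand mRNAs (76.9%, 67.3 to 84.4%). 1 of the 12 knockout-called footprints had one (8.33%), against 23.4% of that list and 2 of 50 on the other plus-strand mRNAs (4.0%). Median lengths were 17 nt and 13.5 nt, against 16 nt and 14 nt over all footprints and 14 nt and 25 nt on the other plus-strand mRNAs. On those mRNAs the knockout-called footprints were the longer ones by this measure, and on mt-Nd5 the control-called ones were.

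Control-called footprints covered 11.4% of the 1824 nt and knockout-called ones 11.6%, and 24 nt (1.32%) lay in both. On the other plus-strand mRNA genes the lists covered 17.1% and 12.5%, and 188 nt (2.08%) lay in both. In 3 equal parts of 608 nt, from 5′ to 3′ and by midpoint, there were 3, 6 and 2 control-called and 2, 4 and 6 knockout-called footprints. The largest stretch free of control-called footprints was chrM:12083-12567 (485 nt), in which 3 knockout-called footprints lay. The largest stretch free of knockout-called ones was the first 424 nt of the gene, chrM:11742-12165, in which 3 control-called footprints lay. The first 247 nt, chrM:11742-11988, held no footprint of either list on either strand. No footprint crossed the border to mt-Tl2, the leucine tRNA gene that ends 1 base before mt-Nd5, and none on the plus strand reached the last 137 nt, chrM:13429-13565.

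**Figure D3:**
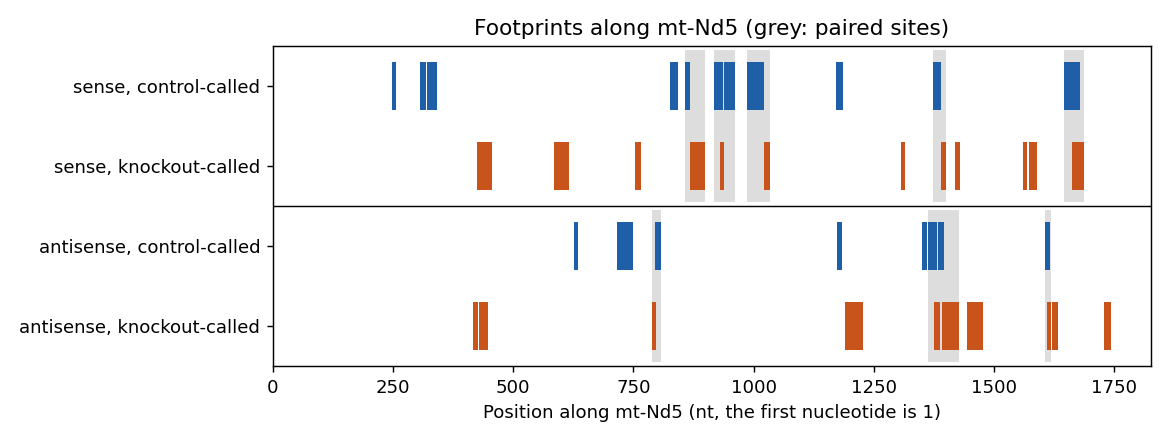
Footprints along mt-Nd5 in nt from its first nucleotide, on the sense strand (upper rows) and the antisense strand (lower rows), control-called in blue and knockout-called in orange, with paired sites shaded in grey. The 5 sense sites lie between nt 857 and 1687, and the first 247 nt are empty in all 4 rows.

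Past the annotated end the plus strand runs opposite mt-Nd6, the only mRNA gene on the minus strand, which overlaps the last 14 nt of mt-Nd5. The 3′ end of the mt-Nd5 mRNA is known to extend into this stretch. Between the end of mt-Nd5 and mt-Cytb, chrM:13566-14144, there were 5 plus-strand footprints, all opposite mt-Nd6, and the annotation gives them to no gene. 2 were control-called, chrM:13771-13799 (29 nt, F score 0.825) and chrM:13825-13846 (22 nt, F score 0.754). 3 were knockout-called, chrM:13800-13810 (11 nt, F score 1.83), chrM:13816-13825 (10 nt, F score 1.30) and chrM:13986-13994 (9 nt, F score 1.88). The first control-called footprint abutted a knockout-called one and the second shared 1 nt with another, so the lists met here as they did inside the gene. The F score of 1.88 was the highest of all 124 knockout-called footprints, that is, the nearest to equal cleavage of footprint and flanks.

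RNase A cuts after C and U and RNase T1 after G, so the base content of a span bears on which library can cut it. The mt-Nd5 mRNA held 34.3% A, 27.1% C, 9.98% G and 28.6% T. Its control-called footprints, 208 nt in all, held 12.0% G, and its knockout-called ones, 211 nt, held 19.4% G. In the footprints on the other plus-strand mRNAs G made up 15.6% in the control-called list and 13.4% in the knockout-called list, where these mRNAs as a whole held 11.8%. A single knockout-called footprint, shown here with its G in capitals, held 11 of the 41 G, and without it the share was 16.7%.
chrM:12166-12196: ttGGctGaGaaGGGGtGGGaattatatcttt

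The 3 nt flanks had another make-up. Around knockout-called footprints they held 5.56% G and 33.3% C, and around control-called ones 10.6% G, 18.2% C and 43.9% A. On the other plus-strand mRNAs the flanks of knockout-called footprints were also poor in G, at 4.67%, while those of control-called footprints held 30.2% A. These flanks amount to 66 nt and 72 nt on mt-Nd5, so a few bases move these shares. 1 footprint of each list held no G, chrM:11989-11996 and chrM:13301-13308, which were also the shortest of their lists on mt-Nd5 with 8 nt each. These were 9.09% of the control-called and 8.33% of the knockout-called footprints, beside 12.1% (11 of 91) and 6.0% (3 of 50) on the other plus-strand mRNAs. How far the base content contributed to the scores was not tested.

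On the minus strand over mt-Nd5, the strand of mt-Nd6, 8 control-called and 10 knockout-called footprints lay on no annotated gene. Antisense footprints thus made up 43.9% of the 41 footprints over the gene (95% Wilson interval 29.9 to 59.0%). Over the other 11 plus-strand mRNA genes together they made up 21 of 162 (12.96%, 8.64 to 19.0%). These intervals do not overlap, but they cover the counting of footprints only and no test between libraries was possible. They also treat each footprint as independent, although some abut or overlap, so they decide nothing about a difference between genes. Over the other 6 complex I mRNA genes the share was 21.7% (13.6 to 32.8%, 15 of 69), whose interval overlaps that of mt-Nd5. Among them were mt-Nd6 with 5 of 13 (38.5%, 17.7 to 64.5%) and mt-Nd4l with 2 of 3 (66.7%, 20.8 to 93.9%), whose intervals also overlap it. The 5 counted for mt-Nd6 are the plus-strand footprints past the end of mt-Nd5 described above, which may lie on the mt-Nd5 mRNA itself. Without mt-Nd6 the share over the complex I genes was 10 of 56 (17.9%, 10.0 to 29.8%), next to the 29.9 to 59.0% of mt-Nd5. Per kb, mt-Nd5 had 4.39 control-called and 5.48 knockout-called antisense footprints, and the other plus-strand mRNA genes 1.104 and 1.21. Antisense RNA levels are not in these files, and their part in this density was not tested.

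The antisense footprints resembled the sense ones in score. Their F scores ran from 0.780 to 1.22 in the control-called list, with a median of 0.926, and from 1.103 to 1.44 in the knockout-called list, with a median of 1.25. None lay in the 5′ part of 608 nt in the control-called list, and 2 did in the knockout-called list. On this strand too the lists met, at 3 sites, with 4 of the 8 control-called (50.0%, 21.5 to 78.5%) and 4 of the 10 knockout-called footprints involved (40.0%, 16.8 to 68.7%). The shares over the whole lists, 39.3% and 50.8%, lie within these intervals. The longest of these sites is shown because sense and antisense footprints of both lists crowd there. It is the minus strand, 5′ to 3′, with the knockout-called bases in capitals.
chrM:13104-13168: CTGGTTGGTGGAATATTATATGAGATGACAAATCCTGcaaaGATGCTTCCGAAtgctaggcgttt

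This stretch of 65 nt lies opposite the best protected sense footprint and its knockout-called neighbour, which span 28 nt, and opposite most of the knockout-called sense footprint at chrM:13161-13169. The control-called antisense footprints at chrM:13104-13121 (F score 0.916) and chrM:13125-13136 (F score 0.780) lay side by side, and the knockout-called one at chrM:13116-13127 (F score 1.28) shared 6 nt with the first and 3 nt with the second. A second knockout-called footprint, chrM:13132-13168 (37 nt, F score 1.24), which comes first on the minus strand, shared 5 nt with the control-called chrM:13125-13136. The sense footprint at chrM:13114-13130 shared 8 and 6 nt with the control-called pair and 12 nt with the knockout-called one. Of all 100 nt windows on mt-Nd5, chrM:13051-13150 held the most footprint midpoints, 8 against a mean of 2.25, of which 3 were sense and 5 antisense.

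The other meetings on the antisense strand were short. At chrM:12530-12547 the control-called chrM:12537-12547 (F score 0.888) and the knockout-called chrM:12530-12538 (F score 1.103) shared 2 nt, and at chrM:13348-13359 the control-called chrM:13348-13356 (F score 1.11) and the knockout-called chrM:13352-13359 (F score 1.16) shared 5 nt. The F scores of the latter pair lay closest together of the 5 antisense pairs. 4 control-called antisense footprints had no such neighbour, the longest of them chrM:12457-12490 (34 nt, F score 0.936). Of the 6 knockout-called ones without a neighbour, the longest were chrM:12931-12968 (38 nt, F score 1.20) and chrM:13185-13217 (33 nt, F score 1.19). The latter had a C score of 0.14, so it was cut more than mock-digested RNA and was protected only relative to its flanks. chrM:13469-13483, the antisense footprint nearest to the 3′ end of mt-Nd5, was knockout-called with an F score of 1.26.

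Over the whole gene, 2 of the 11 control-called and 3 of the 12 knockout-called sense footprints had any antisense footprint opposite them (18.2%, 5.14 to 47.7%, and 25.0%, 8.89 to 53.2%). Over the whole lists these shares were 13.5% and 13.7%, which both intervals include. Apart from the crowded stretch, this was 1 footprint of each list. The control-called antisense footprint chrM:12915-12924 lay wholly opposite the control-called sense footprint chrM:12913-12926, and the knockout-called chrM:12170-12188 wholly opposite the knockout-called, G-rich chrM:12166-12196. In both cases the 2 footprints came from the same list.

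Among the 13 mitochondrial mRNA genes, mt-Nd5 had the most knockout-called footprints together with mt-Co1, the gene of a catalytic subunit of complex IV, with 12 on each. mt-Co1 had 27 control-called footprints beside them and mt-Nd5 had 11. Per kb, mt-Nd5 ranked 10 of 13 for control-called footprints (6.03) and 3 of 13 for knockout-called ones (6.58). Control-called footprints made up 47.8% of those on mt-Nd5 (29.2 to 67.0%) and 64.5% on the other plus-strand mRNA genes (56.4 to 72.0%, 91 of 141). These intervals overlap.

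The other 6 complex I mRNAs of mitochondrial DNA together had 30 control-called and 24 knockout-called footprints, of which the control-called made up 55.6% (42.4 to 68.0%). Per kb this was 6.61 and 5.29, against 10.04 and 5.52 for the other 11 plus-strand mRNA genes, which include 5 of these 6. In control-called density mt-Nd5 (6.03) lay nearer to the complex I genes, and in knockout-called density (6.58) it lay above both. mt-Nd1, the gene of the subunit next to the quinone site, had 7 and 8, mt-Nd2 had 6 and 5, and mt-Nd4, which like mt-Nd2 encodes a pump of the membrane arm, had 9 and 8. The short mt-Nd3 and mt-Nd4l had 2 and 1 control-called footprints and no knockout-called one. mt-Nd6, on the minus strand, had 5 and 3. On the opposite strand, mt-Nd6 came closest to mt-Nd5, with 3.85 control-called and 5.78 knockout-called footprints per kb from 2 and 3 footprints, which are the same plus-strand footprints past the end of mt-Nd5. Next came mt-Nd4l with 3.37 per kb in each list, from 1 footprint each, and mt-Nd1 with 3.13 and 1.04, from 3 and 1. For mt-Nd2 and mt-Nd4 neither list exceeded 1.45 per kb on the opposite strand.

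**Figure D4:**
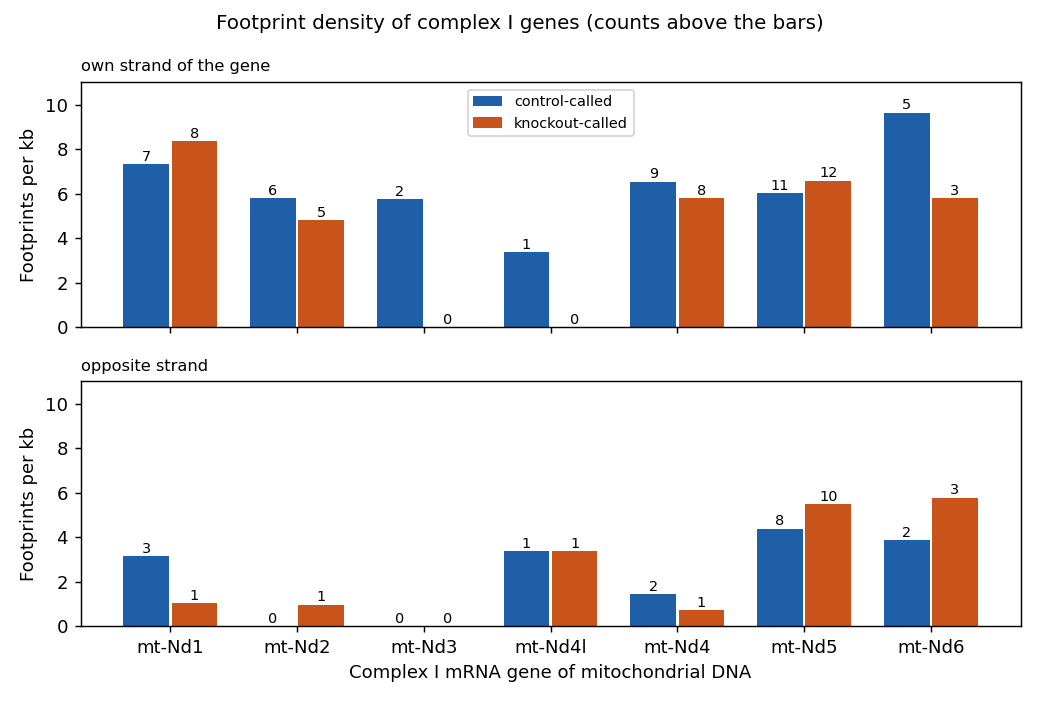
Control-called (blue) and knockout-called (orange) footprints per kb of the 7 complex I mRNA genes of mitochondrial DNA, on the strand of the gene (upper panel) and on the opposite strand (lower panel), with the number of footprints above each bar. mt-Nd5 has 11 and 12 on its own strand and 8 and 10 on the opposite strand.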

How the data were processed

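The authors trimmed reads with cutadapt 1.10 (named in the submitters' processing notes), aligned them with Bowtie2 to mm10, combined technical replicates, resolved reads that also matched nuclear mitochondrial insertions, and scaled strand-specific 5′ coverage to library size. Spans of 8 to 40 nt were searched, and an FDR of 5% was set from shuffled tracks. The deposited scores are an F score and a central C score for each footprint, on the calling track. The authors' log2 fold changes of the F score between genotypes, also deposited, were not used.

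Start positions were made 1-based. Genes came from GENCODE M21 and sequences from RefSeq, both for mm10, and the annotated mt-Nd5 transcript matched the genome sequence. A gap counts the nt between 2 footprints, 0 when they abut. Intervals are Wilson, 95%, and cover the counting of footprints only. They treat each footprint as independent, although some abut or overlap, and are given as a description. Every mt-Nd5 footprint is accounted for. Paired footprints and the lowest and highest F score of each list are given in full. The windows of 100 nt, the order within pairs, the share of G without 1 footprint and the stretch beyond the gene were chosen after seeing the data. The gene, its rule and the lists compared were chosen with earlier results of these data known. Overlap functions were tested on simulated footprints. Python 3.11.15, SciPy 1.17.1 and Matplotlib 3.10.9 were used.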

Additional observations from a re-analysis of the deposited data

How the results depend on the processing

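The 14 values of counts, coverage, neighbours, scores and lengths were recomputed under 40 alternatives, and 32 stayed within 1.5 times the value given, or for medians within 1 SD of the footprints. A limit of 1 on the F score left no knockout-called footprint, sense or antisense, so that the knockout-called counts (0 and 0), the coverage (0%) and both counts of neighbours (0 and 0) dropped, and it left 5 of the 8 antisense control-called footprints. On the opposite strand, 1 control-called and 1 knockout-called footprint had a neighbour of the other list within 3 nt. All 17 alternatives of the base shares, 1 of them (G without the footprint richest in it) chosen after seeing the data, moved them by less than 1 SD between footprints. No paired analysis was possible because each genotype has 1 track and no test was made, and for the same reason no library could be left out. Depth is unknown, so no limit from it can be given.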
